A study of Mus musculus with 18 samples.

Results

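The genes described here encode enzymes of the tricarboxylic acid (TCA) cycle and of malate metabolism: Idh1, Idh2, Idh3a, Idh3g, Ogdh, Suclg1, Fh1, Mdh1, Mdh2 and Pcx. They were chosen by enzyme function and matched by gene symbol. All 10 were found among the 55487 gene identifiers of the deposited table, and all 10 were among the 14864 genes that passed the filter on low counts and were tested. Pcx passed that filter through the cultured cells alone. RNA was sequenced from sorted natural killer (NK) cells of mouse spleen, in 18 libraries that form 6 groups of 3. Mice of both genotypes were Rosa YFP/YFP, a fluorescent reporter that Cre switches on, and carried Ncr1 CRE-ERT2, a tamoxifen-dependent Cre driven from the gene of the NK receptor NKp46. Knock-out mice had in addition the Acly fl/fl allele, which Cre deletes, so the wild-type controls shared the Cre, the reporter and the tamoxifen. The diet with tamoxifen lasted 48 hours, and YFP+ cells were taken 5 days after it ended. Ncr1 is also active in type 1 innate lymphoid cells (ILC1), which the sort could therefore hold. Each genotype was profiled fresh, after priming by IL-15 (100 ng/ml, 72 hours), and after primed cells had been washed and stimulated on plate-bound NKG2D reagent (20 ug/ml, 6 hours). No label tells the age of the mice, or whether a library is from 1 animal or from a pool, and a p-value here weighs a difference against the spread between libraries, which may be technical.

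The TCA cycle runs in mitochondria, where it oxidises acetyl units to carbon dioxide and hands electrons to the respiratory chain. Citrate can leave the cycle for the cytosol, where ATP-citrate lyase, the product of Acly, splits it into acetyl-CoA and oxaloacetate. Cytosolic malate dehydrogenase turns that oxaloacetate into malate, which re-enters mitochondria, and in NK cells activated by cytokines this citrate-malate exchange is known to help keep glycolysis running. The question that the design poses for these genes is how their mRNA levels differ where Acly is lost, before culture, after priming and after stimulation.

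The libraries held 14772300 to 34367538 reads, and primed knock-out replicate 1 was the smallest. The targeted gene separated the genotypes without overlap. Fresh wild-type cells held 232 to 265 CPM of Acly (CPM, read counts scaled by library size and TMM factors) and fresh knock-out cells 15.3 to 25.5 CPM. Primed cells held 227 to 280 against 38.1 to 48.9 CPM, and NKG2D-stimulated cells 128 to 193 against 28.2 to 41.9 CPM. All 10 NK cell markers averaged above 1 CPM in every group, as the label of the cells requires. Of 8 monocyte, macrophage and neutrophil markers, Lyz2, S100a8, S100a9 and Mpo were at 0 in every cultured library, while Cd68 stood at 37.2 to 109 CPM there. Of 7 T-cell markers Cd4 and Cd8b1 were at or below 0.422 CPM in all libraries, while Cd3d reached 25.5, Cd3g 42.9 and Cd6 28.9 CPM. The female pattern of Xist and Y-linked genes was seen in 1 library of each group, replicate 1 of the wild-type groups and replicate 2 of the knock-out groups.

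Promoter sequence is shown for the 4 members that passed the test in a comparison between genotypes, Idh2, Suclg1, Mdh2 and Pcx, since these are the members whose mRNA differed where Acly was lost. Each run is the 250 bases before a RefSeq transcription start (build GRCm38.p6), 5′ to 3′ on the strand of the gene, and capitals mark a match to CACGTG. Idh2 is read from chr7:80115351-80115600 on the minus strand. Suclg1 is read from chr6:73248255-73248504 and Mdh2 from chr5:135778399-135778648, both on the plus strand. Pcx has a pair of starts on the plus strand, with windows at chr19:4510222-4510471 and chr19:4594069-4594318.
Idh2: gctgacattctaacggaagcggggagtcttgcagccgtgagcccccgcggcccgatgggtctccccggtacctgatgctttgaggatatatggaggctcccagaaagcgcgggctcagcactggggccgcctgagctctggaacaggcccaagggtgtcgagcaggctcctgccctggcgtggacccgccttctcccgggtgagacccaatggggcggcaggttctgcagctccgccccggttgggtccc
Suclg1: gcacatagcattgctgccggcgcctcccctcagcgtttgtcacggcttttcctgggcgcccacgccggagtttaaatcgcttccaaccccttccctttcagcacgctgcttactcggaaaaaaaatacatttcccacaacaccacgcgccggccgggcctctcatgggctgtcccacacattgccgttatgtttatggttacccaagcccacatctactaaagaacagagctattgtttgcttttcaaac
Mdh2: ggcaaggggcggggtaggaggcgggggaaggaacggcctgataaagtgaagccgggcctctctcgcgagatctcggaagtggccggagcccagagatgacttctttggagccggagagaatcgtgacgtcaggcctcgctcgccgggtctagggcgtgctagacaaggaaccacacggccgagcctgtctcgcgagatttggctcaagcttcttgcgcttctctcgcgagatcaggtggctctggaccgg
Pcx upstream start: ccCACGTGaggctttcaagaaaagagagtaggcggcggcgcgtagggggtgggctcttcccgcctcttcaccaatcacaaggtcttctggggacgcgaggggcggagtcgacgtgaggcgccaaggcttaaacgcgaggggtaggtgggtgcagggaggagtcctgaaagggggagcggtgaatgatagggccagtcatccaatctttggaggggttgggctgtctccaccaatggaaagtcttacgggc
Pcx downstream start: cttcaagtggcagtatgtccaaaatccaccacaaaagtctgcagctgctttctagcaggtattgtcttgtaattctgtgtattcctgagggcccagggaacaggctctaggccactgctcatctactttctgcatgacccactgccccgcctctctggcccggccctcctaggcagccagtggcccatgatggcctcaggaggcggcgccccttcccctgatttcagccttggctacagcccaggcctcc

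RefSeq promoters were matched for 9 of the 10 members, all but Idh3a, with 16 windows in all. CACGTG, the E-box that MYC and related factors bind, was present in 4 windows, 3 of Ogdh that overlap or lie close to each other and the upstream one of Pcx. Over 32851 promoter windows of the same length 6.02% held it. ACGTG, the core of sites bound by hypoxia-inducible factors, overlaps CACGTG and was present in windows of Idh3g, Mdh1, Ogdh and Pcx, against 16.6% of all windows. CCGGAAG, a motif of ETS factors, was present in the window of Idh3g (6.91% of all windows). The NRF1 motif (GCGCA, any base, GCGC) and AAGGTCA, bound by estrogen-related receptors, were in none of the 16 windows, against 3.74% and 4.08% of all. Both strands were searched. Among the promoters printed above, those of Idh2, Suclg1 and Mdh2 held none of these 5 motifs.

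The members changed mainly with priming, and few differed between genotypes. Pcx is left out of the priming counts, since it passed the filter only through the groups in which it is high and so had to rise from fresh cells. In wild-type cells 7 of the other 9 rose with IL-15 and Ogdh fell, where 53.7% of all tested genes passed the test in either direction, 26.5% higher and 27.2% lower. In knock-out cells 4 of these 9 rose, and Ogdh and Suclg1 fell, against 48.7% of all genes (23.0% higher and 25.7% lower). The 8 wild-type and 6 knock-out members called among the 9 are also those whose primed and fresh libraries did not overlap, which 64.1% and 57.5% of all genes did not. Between genotypes 0 of 10 passed in fresh cells with edgeR, where 0.0673% of all genes did. There 4 members had an unadjusted p under 0.05, as did 1903 of the 14864 genes tested. DESeq2 called 0 members and 137 of all genes, and limma voom 4 members and 1900 of all genes. In primed cells 2 of 10 passed (15.5% of all genes) and after NKG2D 3 of 10 (18.2%). The shares called between genotypes were thus near those of all genes. Knock-out and wild-type libraries did not overlap for 7 members in fresh cells (27.0% of all genes), for 3 when primed (31.6%) and for 6 after NKG2D (34.8%). The median log2 fold change of these 9 members with priming was 0.43 in wild type and 0.49 in knock-out, while that of all genes was -0.06 in both.

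**Figure D1:**
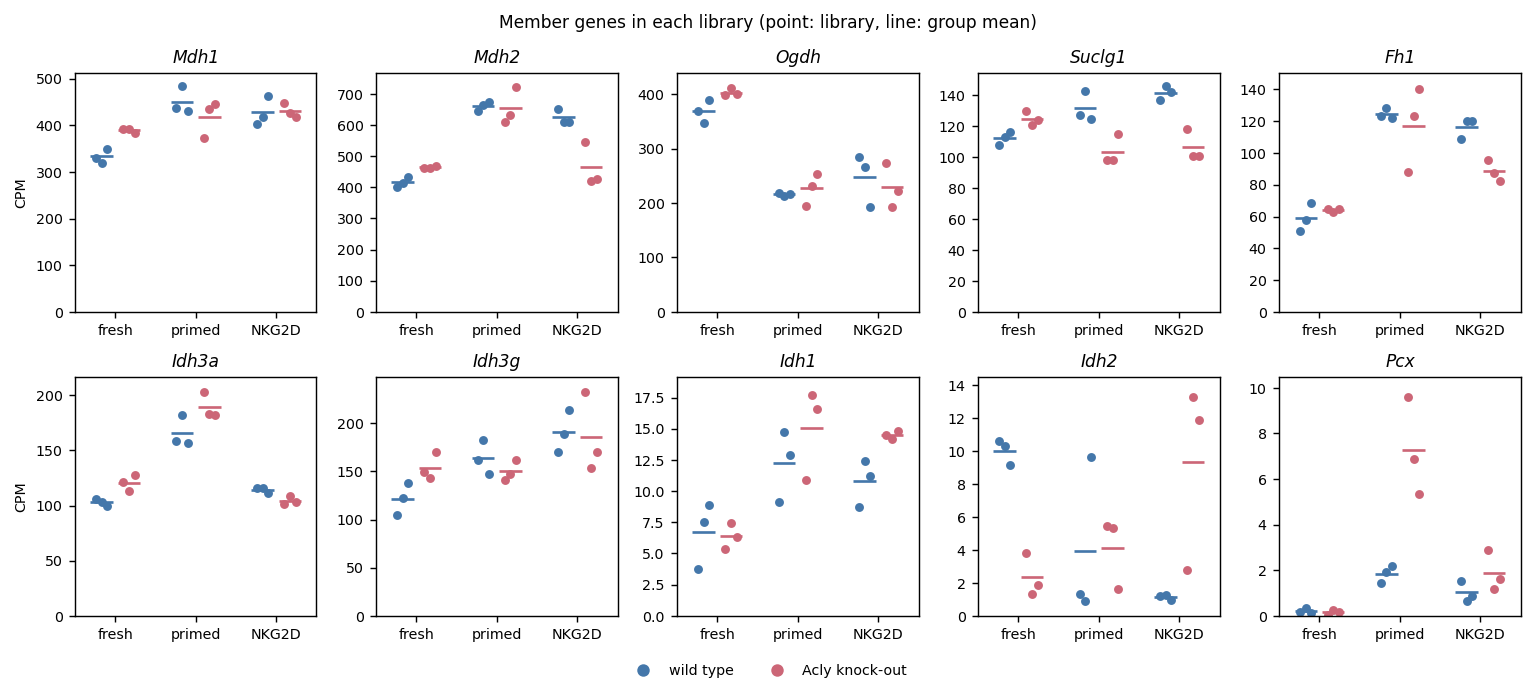
CPM of each member in each library, by condition (x axis) and genotype (colour); points are libraries and lines are means of 3 libraries. Each panel has its own scale starting at 0. Mdh2 stands between 419 and 546 CPM in NKG2D-stimulated knock-out cells, below the wild-type libraries at 611 to 653 CPM, and Pcx is highest in primed knock-out cells at 5.34 to 9.59 CPM.

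To compare genes, CPM was divided by the length of exons in kilobases (GENCODE M21, GRCm38). That length joins all annotated exons of a gene and is not that of the transcript expressed, so the order of genes depends on it. On this per-length scale the malate dehydrogenases were the most abundant members in every group. In fresh wild-type cells Mdh1 stood first at 130.0 ± 5.95 CPM per kb (SD, n = 3) and Mdh2 second at 117 ± 4.82. Ogdh followed at 67.7 ± 3.85 and Idh3g at 45.0 ± 6.11 CPM per kb. Suclg1, Idh3a and Fh1 lay between 17.5 and 24.3 CPM per kb. The NADP-dependent isocitrate dehydrogenases were far lower, with Idh2 at 3.87 ± 0.294 and Idh1 at 2.44 ± 0.956, and Pcx was lowest at 0.0412 ± 0.0246 CPM per kb. Of the 9 neighbouring pairs in that order, the libraries overlapped only for Idh3a and Fh1. In both primed groups, and after NKG2D in wild type, Mdh2 stood first and Mdh1 second, with libraries that overlapped. After NKG2D in knock-out cells Mdh1 stood first at 168 ± 6.05 CPM per kb, above Mdh2 at 130.0 ± 20.0, and these libraries did not overlap. By CPM not divided by length, Mdh2 averaged above Mdh1 there (464 and 431 CPM), as also in fresh wild type (416 and 334 CPM).

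Mdh1 and Mdh2 encode the cytosolic and the mitochondrial malate dehydrogenase, the partners of the malate-aspartate shuttle. Both rose with priming in wild-type cells, and after NKG2D Mdh2 was lower in knock-out than in wild-type cells while Mdh1 did not pass. Mdh2 spans chromosome 5, bases 135778480 to 135790398 of the plus strand. Its fresh libraries held 400, 413 and 434 CPM in wild type and 463, 463 and 468 CPM in knock-out (replicates 1, 2 and 3). Primed libraries held 644, 664 and 674 CPM in wild type and 609, 633 and 721 CPM in knock-out. After NKG2D the values were 653, 611 and 611 CPM in wild type against 546, 419 and 426 CPM in knock-out. The knock-out libraries were thus all above wild type when fresh, overlapped it when primed and were all below it after NKG2D, where replicates 2 and 3 were lowest. The log2 fold change between genotypes was 0.16 in fresh cells (SE 0.0991, adjusted p = 0.524), -0.01 in primed cells (SE 0.099, adjusted p = 0.942) and -0.43 after NKG2D (SE 0.0992, adjusted p = 0.00589). The last call was lost when the fit used the NKG2D libraries alone (adjusted p = 0.0556).

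With priming Mdh2 rose by 0.67 on the log2 scale in wild type (SE 0.0995, adjusted p = 2.24e-05) and by 0.49 in knock-out (SE 0.0993, adjusted p = 0.000544). From primed to NKG2D-stimulated cells it fell by 0.50 in knock-out (SE 0.0993, adjusted p = 0.000841), to a mean of 464 CPM, beside 465 CPM in fresh knock-out cells. The test of whether the genotypes respond unlike is the difference between their responses. It was -0.42 (SE 0.14, adjusted p = 0.115) for the step from primed to NKG2D, which did not pass, and without NKG2D knock-out replicate 1 it was -0.55 and passed (adjusted p = 0.0149). This difference also passed with DESeq2 (-0.45, adjusted p = 0.0364) and limma voom (-0.52, adjusted p = 0.00132). In the 7 other settings, and in the 11 other fits that left 1 library out, it did not pass. A contrast added after seeing the data, the genotype difference after NKG2D minus that in fresh cells, was -0.59 (SE 0.14, 95% interval -0.89 to -0.30, adjusted p = 0.00909). In that contrast 16.2% of all genes passed.

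Mdh1 spans chromosome 11, bases 21556787 to 21572367 of the minus strand, and 52 of its exon bases overlap Wdpcp on the opposite strand. No label or header says whether reads were counted by strand, so reads from such shared bases cannot be told apart. Fresh libraries held 330, 320 and 350 CPM in wild type and 393, 392 and 383 CPM in knock-out. Primed libraries held 437, 484 and 431 CPM in wild type and 372, 435 and 445 CPM in knock-out. After NKG2D the values were 402, 418 and 464 CPM in wild type and 448, 426 and 418 CPM in knock-out. The genotypes were apart without overlap in fresh cells alone, where the log2 fold change of 0.22 (SE 0.0885, adjusted p = 0.296) did not pass. It was -0.11 in primed cells (SE 0.0884, adjusted p = 0.42) and 0.01 after NKG2D (SE 0.0884, adjusted p = 0.965, 95% interval -0.18 to 0.19). Mdh1 rose with priming in wild type by 0.43 (SE 0.0886, adjusted p = 0.000516). In knock-out cells its primed and fresh libraries overlapped, and the change of 0.10 (adjusted p = 0.371) passed without primed knock-out replicate 1 (0.23, adjusted p = 0.0478). The difference between those responses was -0.33 (SE 0.125, adjusted p = 0.0961).

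The balance between the malate dehydrogenases can be read within each library, where scaling plays no part. In fresh cells the log2 ratio of Mdh1 to Mdh2 reads averaged -0.32 ± 0.04 in wild type and -0.25 ± 0.03 in knock-out (SD, n = 3 each). In primed cells it was -0.55 ± 0.09 and -0.65 ± 0.09. After NKG2D it stayed at -0.55 ± 0.15 in wild type and was -0.10 ± 0.16 in knock-out, with knock-out libraries at -0.284, 0.0235 and -0.0283 and wild-type libraries at -0.700, -0.548 and -0.396. The knock-out libraries lay above every wild-type library after NKG2D, and the genotypes overlapped in primed cells. These ratios are given as a description, with no test.

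**Figure D2:**
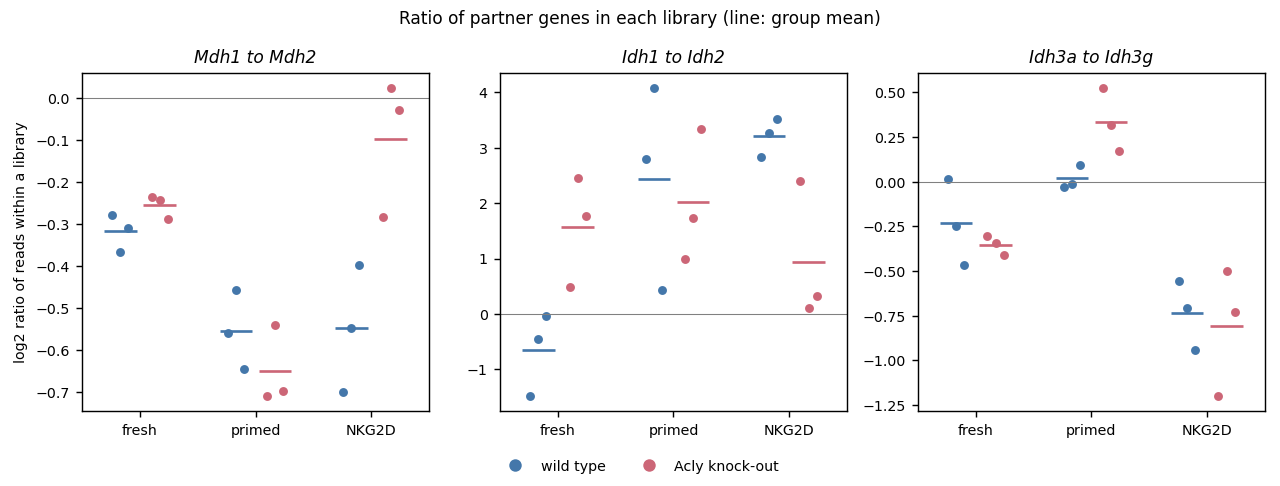
Log2 ratio of reads of 2 partner genes within each library, by condition (x axis) and genotype (colour); points are libraries, lines are means of 3, and the grey line marks equal reads. The Mdh1 to Mdh2 ratio of NKG2D-stimulated knock-out cells lies between -0.284 and 0.0235, above the wild-type libraries, while Idh1 to Idh2 spreads most widely.

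Suclg1 encodes the alpha subunit of succinyl-CoA ligase, which turns succinyl-CoA into succinate with a gain of nucleoside triphosphate. It was the member whose mRNA was lower in knock-out cells both after priming and after NKG2D, at 0.785-fold and 0.754-fold of wild type. The gene spans chromosome 6, bases 73248382 to 73276911 of the plus strand. Fresh libraries held 108, 113 and 116 CPM in wild type and 130, 121 and 124 CPM in knock-out. Primed libraries held 127, 143 and 125 CPM in wild type and 97.9, 98.1 and 115 CPM in knock-out, and after NKG2D the values were 137, 146 and 142 against 118, 101 and 101 CPM. Every knock-out library was above every wild-type library when fresh and below it in both cultured conditions. The log2 fold change was 0.15 in fresh cells (SE 0.0923, adjusted p = 0.519), -0.35 in primed cells (SE 0.0925, adjusted p = 0.0168) and -0.41 after NKG2D (SE 0.0924, adjusted p = 0.0053).

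The primed call for Suclg1 was lost without wild-type replicate 2 (-0.27, adjusted p = 0.122), without knock-out replicate 1 (-0.29, adjusted p = 0.0817) or without knock-out replicate 2 (-0.31, adjusted p = 0.0711). With the primed libraries alone the adjusted p was 0.093. The NKG2D call was kept when any 1 library was left out, with adjusted p up to 0.0348. With priming Suclg1 rose by 0.23 in wild type (SE 0.0924, adjusted p = 0.0478) and fell by 0.27 in knock-out (SE 0.0925, adjusted p = 0.0212). The wild-type rise was lost in 5 of the 6 fits that left 1 library out (all but that without primed replicate 3), at adjusted p of 0.0546 to 0.185, and in the fit with the replicate number as a block (adjusted p = 0.0671). The knock-out fall was lost in 5 of 6 (all but that without primed replicate 3), at adjusted p of 0.0727 to 0.18. The difference between the responses was -0.50 (SE 0.131, 95% interval -0.78 to -0.22, adjusted p = 0.0216), where 10.5% of all genes passed. It was lost in 9 of the 12 fits that left 1 library out (all but those without fresh wild-type, primed wild-type or primed knock-out replicate 3), at adjusted p of 0.0522 to 0.108. The replicate block within genotype (adjusted p = 0.0527) and the fit without a filter (adjusted p = 0.126) lost it too. The genotype difference after NKG2D minus that in fresh cells was -0.56 (SE 0.131, adjusted p = 0.0085).

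Ogdh encodes the E1 subunit of the oxoglutarate dehydrogenase complex, which makes succinyl-CoA. It was the member that fell with priming in both genotypes, and it passed in no comparison between genotypes. Fresh libraries held 370, 348 and 390 CPM in wild type and 398, 411 and 400 CPM in knock-out. Primed libraries held 219, 213 and 216 CPM in wild type and 195, 232 and 254 CPM in knock-out, and after NKG2D the values were 284, 267 and 192 against 273, 192 and 222 CPM. All 12 cultured libraries were below all 6 fresh ones. The fall with priming was -0.78 on the log2 scale in wild type (SE 0.14, adjusted p = 0.000169) and -0.83 in knock-out (SE 0.141, adjusted p = 0.000108). Between genotypes the log2 fold change was 0.13 in fresh cells (adjusted p = 0.765), 0.07 in primed cells (adjusted p = 0.761) and -0.11 after NKG2D (adjusted p = 0.633). The fresh knock-out libraries all lay above the fresh wild-type ones, and the primed and NKG2D libraries of the genotypes overlapped. Ogdh spans chromosome 11, bases 6291633 to 6356642 of the plus strand.

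Fh1 encodes fumarase, which hydrates fumarate to malate in mitochondria and in the cytosol. It rose with priming in both genotypes and was lower in knock-out libraries after NKG2D by an amount just short of the threshold. Fresh libraries held 51.1, 57.9 and 68.6 CPM in wild type and 65.0, 62.6 and 65.0 CPM in knock-out. Primed libraries held 123, 128 and 122 CPM in wild type and 88.2, 123 and 140 CPM in knock-out, and after NKG2D the values were 109, 120 and 120 against 95.4, 87.3 and 82.4 CPM. Primed knock-out replicate 1 was the low one of its group, and after NKG2D the genotypes did not overlap. The rise with priming was 1.07 in wild type (SE 0.138, adjusted p = 4.58e-06) and 0.87 in knock-out (SE 0.138, adjusted p = 5.39e-05). The genotype difference was 0.12 in fresh cells (adjusted p = 0.778), -0.08 in primed cells (adjusted p = 0.72) and -0.39 after NKG2D (SE 0.136, adjusted p = 0.0547). Without NKG2D knock-out replicate 1 the last value was -0.45 and passed (adjusted p = 0.0495). It also passed with DESeq2 (adjusted p = 0.0237), limma voom (0.000133), RLE factors (0.041) and the NKG2D libraries alone (0.047).

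From primed to NKG2D-stimulated knock-out cells Fh1 fell by 0.41 (SE 0.137, adjusted p = 0.0276), although these libraries overlapped. That call was lost without primed knock-out replicate 2 (adjusted p = 0.0862), primed knock-out replicate 3 (0.162), NKG2D knock-out replicate 2 (0.0816) or NKG2D knock-out replicate 3 (0.082). It was also lost with the libraries of the comparison alone (adjusted p = 0.11) and with the replicate block within genotype (0.057). Fh1 spans chromosome 1, bases 175600374 to 175625635 of the minus strand.

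**Figure D3:**
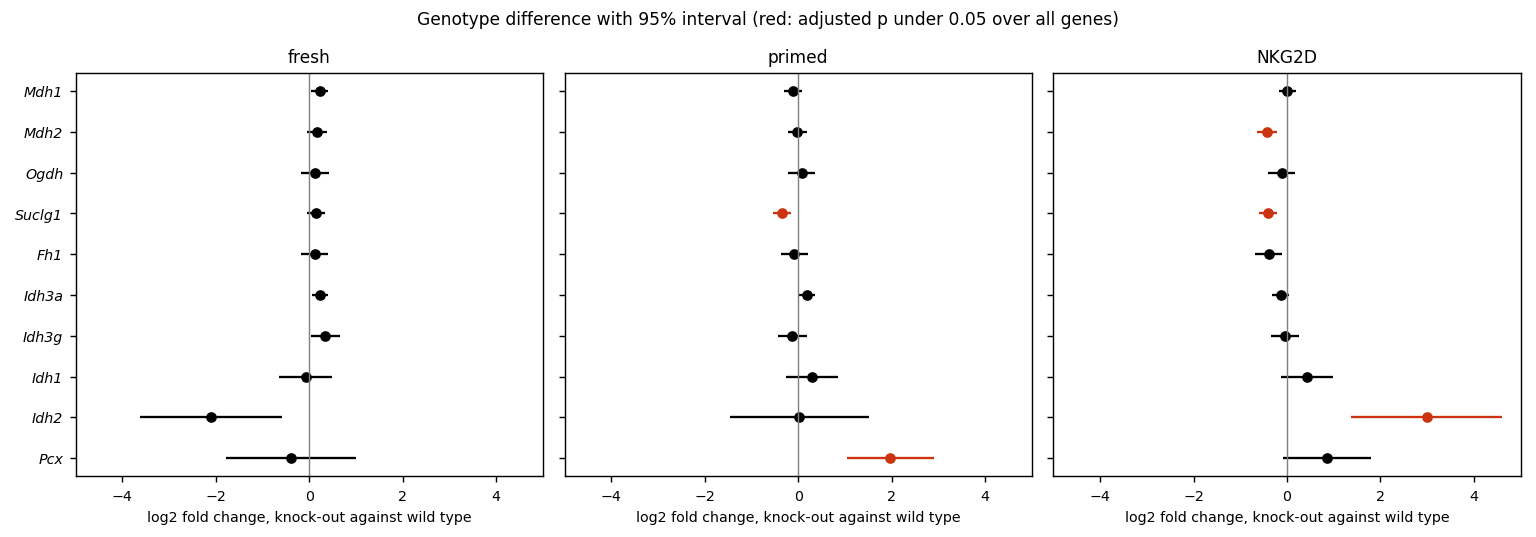
Log2 fold change of each member in knock-out against wild-type cells (x axis) in fresh, primed and NKG2D-stimulated cells, from edgeR with 3 libraries per group; bars are 95% intervals and red marks adjusted p under 0.05. Pcx and Suclg1 passed in primed cells, and Mdh2, Suclg1 and Idh2 after NKG2D.

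Idh3a and Idh3g encode the catalytic alpha and the regulatory gamma subunit of the NAD-dependent isocitrate dehydrogenase of the cycle. Idh3a rose with priming and fell with NKG2D in both genotypes, while Idh3g rose with priming in wild type. Fresh libraries held 106, 103 and 99.7 CPM of Idh3a in wild type and 121, 113 and 128 CPM in knock-out. Primed libraries held 159, 182 and 157 CPM in wild type and 203, 183 and 182 CPM in knock-out, and after NKG2D the values were 116, 116 and 111 against 101, 109 and 103 CPM. The knock-out libraries were above wild type without overlap in fresh and primed cells and below it without overlap after NKG2D. None of these passed: the log2 fold changes were 0.23 (SE 0.0845, adjusted p = 0.263), 0.19 (SE 0.0842, adjusted p = 0.133) and -0.14 (SE 0.0844, adjusted p = 0.292).

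The rise of Idh3a with priming was 0.69 in wild type (SE 0.0847, adjusted p = 2.6e-06) and 0.65 in knock-out (SE 0.0846, adjusted p = 6.54e-06). With NKG2D it fell by 0.54 in wild type (SE 0.0845, adjusted p = 0.000194) and by 0.86 in knock-out (SE 0.0849, adjusted p = 6.02e-07). It was the only member that passed in the wild-type response to NKG2D, where 19.9% of all genes did. In knock-out cells 4 members passed, all downward, where 35.3% of all genes passed and 16.9% fell. Those 4 were Idh3a, Fh1, Mdh2 and Pcx. The difference between the NKG2D responses of Idh3a was -0.33 (SE 0.119, adjusted p = 0.148), and none of the 10 members passed in that comparison, where 3.55% of all genes did. At an unadjusted p under 0.05 there were 3 members, Idh2, Idh3a and Mdh2, where 2712 of all genes reached it. DESeq2 called 1 member and 1016 of all genes, and limma voom 2 members and 2114 of all genes. The genotype difference of Idh3a after NKG2D minus that in fresh cells was -0.37 (SE 0.119, adjusted p = 0.043). That call was lost whichever of its 12 libraries was left out, with values of -0.42 to -0.30 and adjusted p of 0.0506 to 0.168, and also with the replicate block (0.0633), the replicate block within genotype (0.0967), the sex pattern as a covariate (0.0546) and no filter (0.254). Idh3a spans chromosome 9, bases 54586334 to 54604661 of the plus strand.

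Idh3g spans chromosome X, bases 73778963 to 73786897 of the minus strand. Fresh libraries held 105, 122 and 138 CPM in wild type and 149, 143 and 170 CPM in knock-out. Primed libraries held 162, 183 and 147 CPM in wild type and 141, 147 and 162 CPM in knock-out, and after NKG2D the values were 170, 189 and 214 against 232, 154 and 170 CPM. The genotypes were apart without overlap in fresh cells alone. The log2 fold change there was 0.35 (SE 0.146, adjusted p = 0.329), and it was -0.13 in primed cells (adjusted p = 0.591) and -0.04 after NKG2D (adjusted p = 0.875). The rise with priming in wild type was 0.43 (SE 0.146, adjusted p = 0.0188). It was lost without fresh wild-type replicate 1 (0.34, adjusted p = 0.0931) or without primed wild-type replicate 2 (0.36, adjusted p = 0.076). Without NKG2D knock-out replicate 2, a rise of 0.47 from primed to NKG2D knock-out cells passed (adjusted p = 0.0251). The log2 ratio of Idh3a to Idh3g reads averaged higher in primed than in fresh cells, and lowest after NKG2D, in both genotypes. In wild type it was -0.23 ± 0.24 when fresh, 0.02 ± 0.07 when primed and -0.73 ± 0.20 after NKG2D (SD, n = 3). The fresh and primed wild-type libraries overlapped. In knock-out cells the ratio was -0.35 ± 0.05, 0.34 ± 0.18 and -0.81 ± 0.36. These ratios were not tested.

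**Figure D4:**
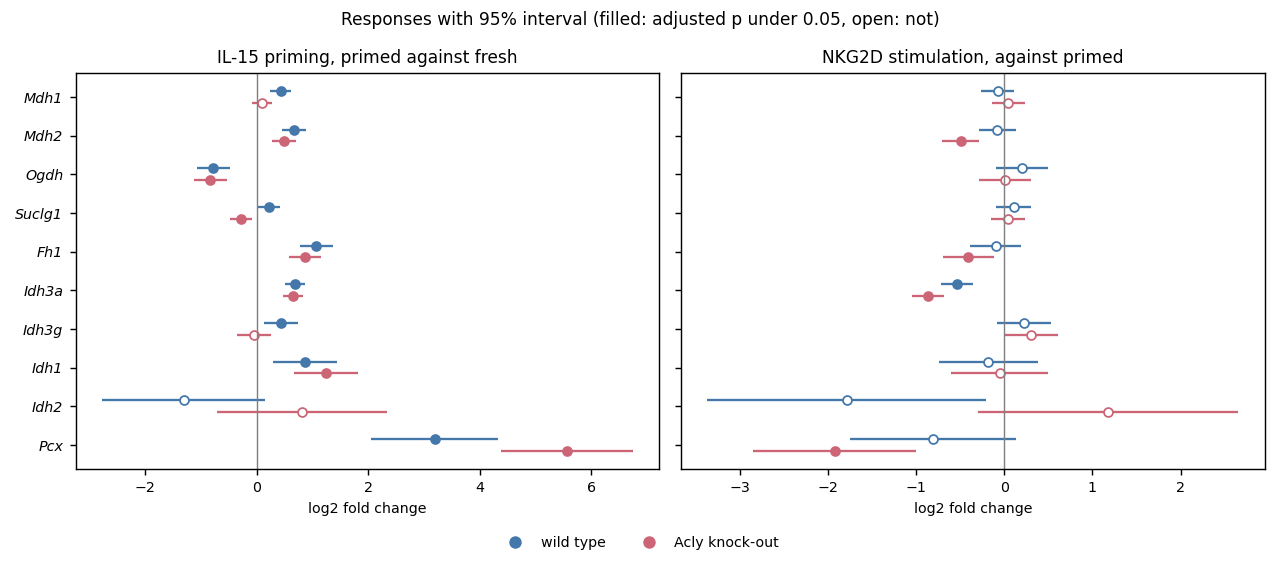
Log2 fold change of each member with IL-15 priming (left, primed against fresh) and with NKG2D stimulation (right, against primed), by genotype (colour), from edgeR with 3 libraries per group; bars are 95% intervals and filled points have adjusted p under 0.05. Leaving out Pcx, priming moved 8 wild-type and 6 knock-out members of 9 past the threshold, where 53.7% and 48.7% of all genes passed. Of all 10 members NKG2D moved 1 and 4, where 19.9% and 35.3% of all genes passed.

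Pcx encodes pyruvate carboxylase, the mitochondrial enzyme that makes oxaloacetate from pyruvate and so refills the cycle. It was at a few reads a library in fresh cells and at more in every cultured library, and was 3.93-fold higher in primed knock-out than in primed wild-type cells. Its fresh libraries held 4, 7 and 2 reads in wild type and 1, 5 and 5 reads in knock-out. Primed libraries held 30, 35 and 71 reads in wild type and 143, 155 and 111 reads in knock-out, and after NKG2D the reads were 54, 14 and 19 against 69, 25 and 40. As CPM the primed values were 1.42, 1.91 and 2.18 in wild type and 9.59, 6.87 and 5.34 in knock-out, so that every knock-out library was above every wild-type library. After NKG2D they were 1.54, 0.668 and 0.890 against 2.89, 1.17 and 1.63 CPM, and the genotypes overlapped.

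The log2 fold change of Pcx between genotypes in primed cells was 1.97 (SE 0.438, 95% interval 1.05 to 2.90, adjusted p = 0.00554), a 3.93-fold difference. That call was kept when any 1 library was left out (1.74 to 2.15, adjusted p up to 0.0307). After NKG2D the value was 0.85 (SE 0.446, adjusted p = 0.207), and in fresh cells -0.39 (SE 0.665, 95% interval -1.79 to 1.01), where a library held only 1 to 7 reads. The log2 fold change with priming was 3.19 in wild type (SE 0.54) and 5.56 in knock-out (SE 0.561), both against a base of a few reads, and is given as a description, with no test, since the filter let Pcx pass through its cultured libraries. The difference between those responses was 2.37 (SE 0.805, 95% interval 0.67 to 4.06, adjusted p = 0.0685), which did not pass. From primed to NKG2D-stimulated knock-out cells Pcx fell by 1.93 (SE 0.437, adjusted p = 0.0023). Pcx spans chromosome 19, bases 4510472 to 4621752 of the plus strand.

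Idh1 and Idh2 encode the cytosolic and the mitochondrial NADP-dependent isocitrate dehydrogenase, which interconvert isocitrate and 2-oxoglutarate and make NADPH. Idh1 rose with priming in both genotypes. Its fresh libraries held 3.79, 7.56 and 8.90 CPM in wild type and 5.35, 7.44 and 6.32 CPM in knock-out. Primed libraries held 9.16, 14.7 and 12.9 CPM in wild type and 10.9, 17.7 and 16.6 CPM in knock-out, and after NKG2D the values were 8.76, 12.4 and 11.2 against 14.5, 14.2 and 14.8 CPM. Only after NKG2D did the genotypes not overlap. The rise with priming was 0.87 in wild type (SE 0.27, adjusted p = 0.0121) and 1.24 in knock-out (SE 0.271, adjusted p = 0.0011). The wild-type rise was lost without fresh replicate 1 (0.58, adjusted p = 0.0635) or without primed replicate 2 (0.73, adjusted p = 0.0514). Between genotypes the log2 fold change was -0.08 in fresh cells (adjusted p = 0.945), 0.30 in primed cells (adjusted p = 0.476) and 0.43 after NKG2D (SE 0.264, adjusted p = 0.296). Idh1 spans chromosome 1, bases 65158616 to 65186500 of the minus strand.

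Idh2 varied widely between the libraries of several groups, and the genotypes stood in opposite order in fresh and in NKG2D-stimulated cells. It spans chromosome 7, bases 80094846 to 80115392 of the minus strand. Fresh libraries held 10.6, 10.3 and 9.16 CPM in wild type and 3.81, 1.35 and 1.86 CPM in knock-out. Primed libraries held 1.32, 0.873 and 9.62 CPM in wild type and 5.43, 5.32 and 1.64 CPM in knock-out. After NKG2D the values were 1.23, 1.29 and 0.983 CPM in wild type and 2.77, 13.3 and 11.9 CPM in knock-out. Primed wild-type replicate 3 stood near the fresh wild-type level and 11.0-fold above the lowest library of its group, and after NKG2D knock-out replicates 2 and 3 stood apart from replicate 1.

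The log2 fold change of Idh2 between genotypes was -2.10 in fresh cells (SE 0.722, adjusted p = 0.241) and 0.02 in primed cells (SE 0.704, adjusted p = 0.991). After NKG2D it was 2.99 (SE 0.763, 95% interval 1.38 to 4.60, adjusted p = 0.0115), and every knock-out library was above every wild-type library. The fresh value did not pass, although its 95% interval was -3.62 to -0.57, and it was called by limma voom (-2.22, adjusted p = 0.00647), with the fresh libraries alone (-2.12, adjusted p = 0.00675) and without a filter on low counts (-2.08, adjusted p = 2.08e-06). The NKG2D call was kept when any 1 library was left out (2.62 to 3.42, adjusted p up to 0.0472). The genotype difference after NKG2D minus that in fresh cells was 5.08 (SE 1.05, 95% interval 2.87 to 7.30, adjusted p = 0.00419).

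With priming the wild-type change of Idh2 was -1.30 (SE 0.694, adjusted p = 0.122) with all libraries and -3.17 (adjusted p = 0.000575) without primed wild-type replicate 3. Without that library the primed genotype difference was 1.89, the difference between the priming responses went from 2.12 (adjusted p = 0.188) to 3.98 (adjusted p = 0.00414), and the wild-type change with NKG2D went from -1.79 (adjusted p = 0.108) to 0.08. Without primed wild-type replicate 2 that last change was -2.25 and passed (adjusted p = 0.0437). In knock-out cells the change was 0.81 with priming (adjusted p = 0.371) and 1.18 with NKG2D (adjusted p = 0.207). The primed genotype difference also changed sign without wild-type replicate 1 (-0.375) or 2 (-0.422), or knock-out replicate 1 (-0.204) or 2 (-0.225). The results of Idh2 in primed cells thus turn on single libraries, above all on primed wild-type replicate 3.

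Other genes had high values in some of the same libraries. Me2, the mitochondrial NAD-dependent malic enzyme that turns malate into pyruvate, held 128, 150 and 126 CPM in fresh wild type and 93.2, 52.0 and 55.8 CPM in fresh knock-out cells. Primed libraries held 46.6, 49.6 and 159 CPM of Me2 in wild type and 137, 66.3 and 44.7 CPM in knock-out, and after NKG2D the values were 25.5, 24.6 and 26.1 against 28.0, 69.9 and 82.1 CPM. As with Idh2, primed wild-type replicate 3 and NKG2D knock-out replicates 2 and 3 were the high ones. Me2 passed in no comparison between genotypes within a condition. Its genotype difference after NKG2D minus that in fresh cells was 2.24 (adjusted p = 0.0274). H2-D1, a class I histocompatibility gene chosen after its values were seen, held 452, 444 and 4340 CPM in primed wild type and 1310, 4640 and 5320 CPM in NKG2D-stimulated knock-out cells. What these libraries share beyond these levels was not tested. The other malic enzyme genes were near 0, with at most 9 reads of Me1 and at most 3 reads of Me3 in any library, and were not tested.

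**Figure D5:**
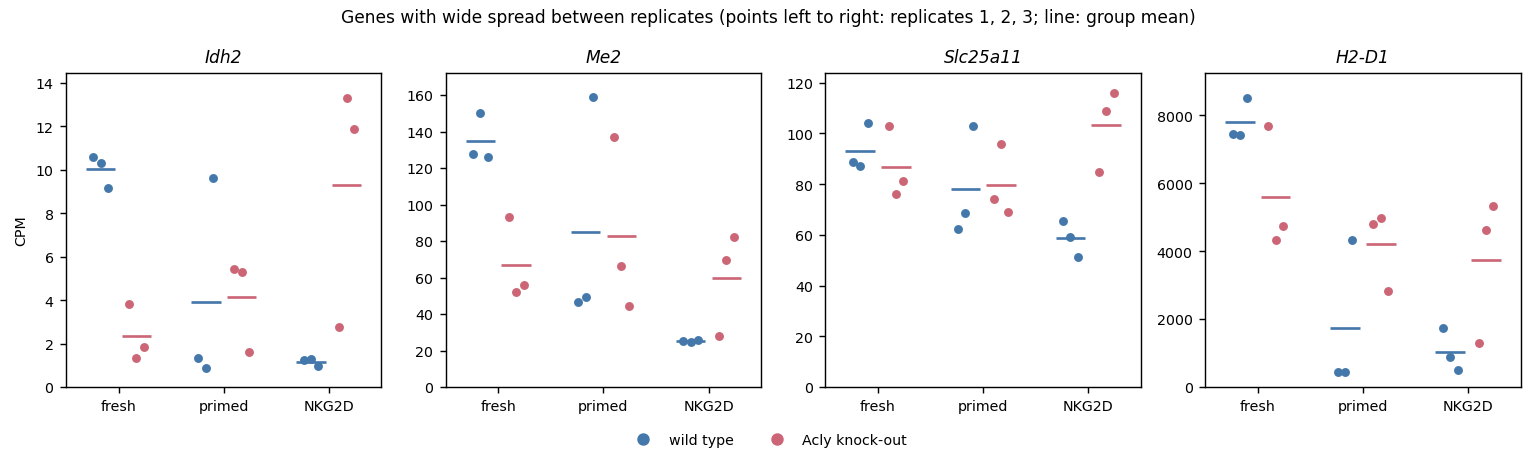
CPM of Idh2, Me2, Slc25a11 and H2-D1 in each library (points from left to right are replicates 1, 2 and 3, lines are means), by condition (x axis) and genotype (colour), on scales starting at 0. Primed wild-type replicate 3 is the high library of its group for all 4 genes, with 9.62 CPM of Idh2, and NKG2D knock-out replicates 2 and 3 lie above replicate 1.

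Markers of other cells differed between genotypes in several conditions. The summed level of the 8 erythroid and platelet markers was 121 to 210 CPM in fresh wild-type and 25.3 to 26.5 CPM in fresh knock-out libraries. It came mostly from the 4 haemoglobin genes, which were at 0 in every primed library. Of the platelet markers, Pf4 was higher in fresh knock-out (4.3 to 4.93 CPM) than in fresh wild type (2.75 to 4.18 CPM). Ppbp overlapped between the genotypes there. The 7 T-cell markers summed to 34.8 to 65.3 CPM in primed wild type against 16.9 to 23.0 CPM in primed knock-out, and to 53.7 to 78.1 against 23.9 to 26.9 CPM after NKG2D. Cd3d, Cd3g and Cd6 made up most of these sums. Cd3e went the other way in primed cells, at 0.123 to 1.32 CPM in wild type and 1.4 to 3.08 CPM in knock-out, and overlapped after NKG2D. The 8 monocyte, macrophage and neutrophil markers summed to 49.0 to 70.0 CPM after NKG2D in wild type and 90.8 to 109 CPM in knock-out, mostly from Cd68, with Lyz2 at 0. In primed cells that sum was 53.4 to 67.4 CPM in wild type against 37.5 to 41.3 CPM in knock-out, and in fresh cells 20.9 to 27.7 against 16.9 to 17.4 CPM. The sum of the 6 ILC1 markers overlapped between genotypes in every condition, at 264 to 441 against 343 to 390 CPM after NKG2D. In each condition that overlap came from wild-type replicate 1. In fresh cells this library stood at 218 CPM beside 50.1 and 50.7 CPM, against 88.6 to 147 CPM in knock-out. When primed, replicate 1 stood at 265 CPM beside 127 and 157 CPM, against 160 to 203 CPM in knock-out. After NKG2D it stood at 441 CPM beside 264 and 267 CPM. Cd200r1 alone was lower in knock-out without overlap when primed (14 to 23 against 5.1 to 8.83 CPM). The same held after NKG2D (14.5 to 25.2 against 3.83 to 8.26 CPM). The 10 NK markers summed to 11900 to 13700 CPM after NKG2D in wild type and 8990 to 10500 CPM in knock-out. Gzma was the largest part of that sum, at 4980 to 5620 against 3060 to 4130 CPM. Prf1, Ncr1 and Klrd1 were also lower in knock-out there without overlap. Klrk1 (859 to 965 against 994 to 1170 CPM) and Eomes (52.6 to 61.6 against 70.7 to 87.7 CPM) were higher without overlap. The other NK markers overlapped. The part of other cells in the differences of Idh2, Suclg1, Mdh2 and Pcx was not tested. In libraries of whole cell populations, fewer cells of a type and less RNA per cell cannot be told apart.

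The rest of the pathway was read from 3 lists chosen by function. Of the 11 other cycle enzymes, all tested, 0 passed between genotypes in fresh cells, while 1 did when primed and 1 after NKG2D. The shares of all genes there were 0.0673%, 15.5% and 18.2%. The primed one was Idh3b, the beta subunit that pairs with Idh3a and Idh3g, which fell by 0.64 in knock-out (SE 0.145, adjusted p = 0.00652). The one after NKG2D was Sdhb, the iron-sulphur subunit of succinate dehydrogenase, which fell by 0.32 (SE 0.0974, adjusted p = 0.0278). In primed cells the beta subunit thus differed between genotypes where the alpha and gamma subunits did not pass. With priming 5 of the 11 rose in wild type and 0 fell (26.5% and 27.2% of all genes), with the smallest adjusted p for Sdhd (0.74, adjusted p = 7.11e-05). In knock-out cells 0 rose (23.0% of all genes) and Idh3b alone fell, by 0.61 (adjusted p = 0.00202), where 25.7% of all genes did. The difference between these responses passed for 3 of the 11, where 10.5% of all genes passed. These were Idh3b, Sdhc and Sdhd (named after their values were seen), all lower in knock-out, with Idh3b at -0.95 (adjusted p = 0.00759). The median log2 fold change of the 11 with priming was 0.33 in wild type and 0.05 in knock-out.

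Carriers and enzymes that exchange malate, citrate and aspartate between mitochondria and cytosol formed the second list, in which 10 of 12 genes were tested. Between genotypes 0 passed in fresh cells (0.0673% of all genes), while 3 did when primed (15.5%) and 3 after NKG2D (18.2%). Slc25a10, the dicarboxylate carrier that exports malate or succinate for phosphate, was higher in knock-out cells by 1.06 when primed (SE 0.191, adjusted p = 0.00127) and by 0.94 after NKG2D (SE 0.19, adjusted p = 0.00243). Its primed libraries held 31.9, 34.3 and 37.5 CPM in wild type and 60.5, 70.3 and 85.1 CPM in knock-out. Slc25a13, an aspartate-glutamate carrier of the malate-aspartate shuttle, was lower in knock-out cells, with log2 fold changes of -0.77 when primed (SE 0.255, adjusted p = 0.0492) and -1.41 after NKG2D (SE 0.261, adjusted p = 0.00128). Its paralog Slc25a12 was also lower in primed knock-out cells (-0.43, adjusted p = 0.0358). Slc25a11, the oxoglutarate-malate carrier of that shuttle, was higher in knock-out after NKG2D by 0.81 (SE 0.186, adjusted p = 0.00571). As with Idh2, primed wild-type replicate 3 and NKG2D knock-out replicates 2 and 3 were the high libraries of their groups for Slc25a11, while its fresh libraries overlapped between genotypes. Of its exon bases 189 overlap Rnf167 on the other strand. After NKG2D Slc25a13 and Slc25a11 thus differed between genotypes in opposite directions, and Slc25a12 did not pass (0.11, adjusted p = 0.623).

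With priming 6 of the 10 exchange genes rose in wild type and Slc25a12 fell, where 26.5% of all genes rose and 27.2% fell. Slc25a13 had the smallest p of those that rose (3.24, adjusted p = 5.12e-08). In knock-out cells 4 rose (23.0% of all genes), again with Slc25a13 among them (2.13, adjusted p = 6.34e-06). There Slc25a12 alone fell, by 1.06 (adjusted p = 3.73e-06), where 25.7% of all genes did. The difference between the priming responses passed for 4 of 10 (10.5% of all genes), of which Slc25a10 alone was higher (0.90, adjusted p = 0.0401). Of the 6 genes of glutamine and 2-oxoglutarate entry that were tested (of 7), 0 passed between genotypes in any condition. The shares of all genes were 0.0673% when fresh, 15.5% when primed and 18.2% after NKG2D. In the wild-type priming response 0 of these 6 passed (53.7% of all genes). In knock-out, where 48.7% of all genes passed, Glud1, glutamate dehydrogenase, fell by 0.30 (adjusted p = 0.0199). At an unadjusted p under 0.05 the genotype counts in fresh cells were 4 of the 10 members, 3 of 11, 3 of 10 and 0 of 6, where 1903 of all genes reached it.

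Some members followed each other across the 18 libraries. As a description over libraries that share a condition, a genotype or both, Pearson's r of log2 CPM was 0.903 for Fh1 with Mdh2 and 0.836 for Fh1 with Mdh1. Ogdh ran against Pcx at -0.801 and against Fh1 at -0.748. Among 7853 genes outside the list whose log2 CPM averaged 3 or more, the nearest to Mdh2 were Ruvbl1 (0.977) and Shmt2 (0.974), and the nearest to Fh1 were Cinp (0.972) and Mtch2 (0.967). Pcx was nearest to Nup155 (0.965) and Cbx5 (0.960), and Idh2 to Dym (0.958) and Rnf8 (0.956). Differences between conditions enter such values, and for Idh2 so does its wide spread between libraries of the same group. How much each adds was not tested.

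In the authors' deposited table of fresh cells 3 members were listed as higher and 1 as lower at adjusted p under 0.05, where 14.3% of the listed genes passed. The lower one in the authors' deposited table was Idh2 (-2.19, adjusted p = 0.00307), and those higher were Idh3a, Idh3g and Mdh1. For primed cells the authors' deposited table listed 3 members higher, Idh1, Idh3a and Pcx, and Suclg1 lower (31.2% of all listed genes). After NKG2D the authors' deposited table listed Idh2 higher and Fh1, Mdh2, Ogdh and Suclg1 lower (45.5% of listed genes). Every member that passed here between genotypes was also past the threshold in the same direction there, and the authors' tables held more members besides.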

How the data were processed

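The authors mapped reads to mm10, and bcl2fastq, DRAGEN and edgeR were used, per the submitters' processing notes. Library chemistry was SMARTer on RNA from an RNeasy kit, per the labels' protocols. The deposited table holds unscaled expected counts (reads estimated for each gene), of which 30% of those above 0 are not whole. Whole counts had been assumed, so values were rounded to whole numbers and tested as counts. Reads carry no molecular barcodes. Neither labels nor headers give the annotation, the strand setting or the alignment parameters. Of 55774 entries, 168 identifiers occur more than once, and 1 entry of each was kept.

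The main test was edgeR 4.0.16 (R 4.3.3) with quasi-likelihood dispersion, TMM factors, the edgeR filter on low counts and 1 mean per group over all 18 libraries, two-sided, on 12 residual degrees of freedom. Within a comparison, Benjamini-Hochberg adjustment covered all 14864 tested genes, with 0.05 as threshold. SE refers to the log2 fold change, CPM uses TMM-scaled library sizes, and SD is that between 3 libraries. There were 9 planned comparisons (genotype in 3 conditions, 2 responses in 2 genotypes, and 2 differences of responses) and 1 added after seeing the data. The fit was checked on simulated counts. Other settings were DESeq2 1.42.0, limma 3.58.1 (voom and sample quality weights), RLE factors, no filter, only the libraries compared, replicate blocks, the sex pattern as a covariate, and leaving out libraries.

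Members, lists and settings were chosen with earlier results of these data known. The text names the 10 members throughout, Acly, from each list the risen and fallen genes of smallest adjusted p (up to 2 each way between genotypes, up to 1 each way in responses), and per member the 2 genes of highest correlation. A gene that this rule takes is not reported here. H2-D1 and Me2, and the third gene of a list where 3 are given, lie outside that rule. The authors' deposited tables of log2 fold changes with their p-values were read for comparison alone; no header gives their model, and the log2 values per sample they also hold were not used. Gene positions are from GENCODE M21 and promoters from RefSeq (GRCm38.p6). Replicate numbers were not taken as pairs: the labels do not tie them to animals, and deviations of same-numbered libraries correlated at -0.307 to 0.279 between genotypes. They did so at 0.219, 0.323 and 0.135 in the knock-out priming response, where every pair is above 0.1, and the replicate block changed no member's call there. In the other 3 responses the values were -0.31 to 0.383. The sex pattern follows the number across all 3 conditions in both genotypes. Whether libraries of the same number share animals was not tested.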

Additional observations from a re-analysis of the deposited data

Results flagged for a closer look

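Several members had genotype effects or responses that differed between groups. The priming response of Suclg1 differed between genotypes, by -0.50 on the log2 scale in edgeR's test of the difference (adjusted p = 0.0216). That call was lost in 9 of the 12 fits that left 1 library out (adjusted p of 0.0522 to 0.108). It was also lost with the replicate block within genotype (adjusted p = 0.0527) and without a filter on low counts (adjusted p = 0.126). Every primed wild-type library was above every fresh one, and every primed knock-out library was below every fresh one, where the change was -0.27. The genotype difference of Suclg1 was -0.35 in primed and -0.41 in NKG2D-stimulated cells, with all knock-out libraries below wild type, while in fresh cells they were all above it. The primed call was lost in 3 of the 6 fits that left 1 library out.

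The contrast of NKG2D-stimulated with fresh cells, added after seeing the data, passed for 4 of the 10 members, where 16.2% of all genes passed. Its values were 5.08 for Idh2 (adjusted p = 0.00419), -0.37 for Idh3a (adjusted p = 0.043, lost whichever of its 12 libraries was left out, with either replicate block, with the sex pattern as a covariate and without a filter), -0.56 for Suclg1 (adjusted p = 0.0085) and -0.59 for Mdh2 (adjusted p = 0.00909). In each of these the knock-out libraries lay on 1 side of wild type in fresh cells and on the other after NKG2D, where the genotype differences were 2.99 for Idh2, -0.14 for Idh3a and -0.43 for Mdh2. Idh3a also stood on opposite sides in primed and NKG2D-stimulated cells, and the test of that difference did not pass (-0.33, adjusted p = 0.148). Since each of these members shares its fresh libraries with the priming comparisons, these differences are not independent of each other.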

How the results depend on the processing

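Counts of members past the threshold moved with the setting as follows. In fresh cells the genotype count of 0 became 4 with limma voom, 1 without a filter on low counts and 1 with the libraries of the comparison alone, and was 0 in every fit that left 1 library out. In primed cells the count of 2 became 1 without a filter, 1 with its own libraries alone and 1 with primed wild-type replicate 3 and primed knock-out replicate 1 both left out (chosen after seeing the data), became 3 with limma voom, and ranged from 1 to 2 with 1 library left out (as for all ranges here). After NKG2D the count of 3 became 4 with DESeq2, 6 with limma voom and 4 with RLE factors, and ranged from 3 to 4. Without Pcx, whose rise with priming the filter fixed in advance, the priming counts were 8 in wild type and 6 in knock-out. Only counts with Pcx were made under the other settings, so its call says nothing about how steady they are. The priming counts, Pcx included, were 9 in wild type and 7 in knock-out. That in wild type became 10 with limma voom and with both libraries left out, and 8 with its own libraries or either replicate block (6 to 10). That in knock-out became 8 with limma voom, and 6 without a filter or with its own libraries (6 to 7). The NKG2D response count in wild type, 1, became 3 with limma voom and 2 without a filter, with a range of 1 to 2, and that in knock-out, 4, became 5 with limma voom, 5 without a filter, and 3 with its own libraries or the block within genotype, with a range of 3 to 4. The difference between priming responses, 1, became 2 with DESeq2, 5 with limma voom, 0 with the replicate block within genotype and 2 with both libraries left out, with a range of 0 to 2. The difference between NKG2D responses, 0, became 1 with DESeq2, 2 with limma voom and 1 without a filter, with a range of 0 to 1. The contrast of NKG2D with fresh, 4, became 5 with DESeq2 and with its own libraries, 8 with limma voom, and 3 without a filter, with either block or with the sex pattern, and ranged from 3 to 4.

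Directions reversed as follows. Mdh2 in primed cells was 0.000456 with DESeq2, 0.00561 with limma voom, 0.000416 with RLE factors, 0.0222 without a filter, 0.0106 with its own libraries alone and 0.0646 with both libraries left out. Fh1 in primed cells was 0.0157 with limma voom and 0.0838 with both left out, and Mdh1 after NKG2D was -0.0064 with DESeq2 and -0.00657 with RLE factors. The wild-type NKG2D response of Idh2, -1.79, was 0.0647 with both left out. With 1 library left out, signs changed within -0.236 to 0.103 for Fh1, -0.422 to 1.89 for Idh2, -0.0932 to 0.0541 for Mdh2 and -0.0171 to 0.192 for Ogdh in primed cells, within -0.367 to 0.176 for Idh1 and -0.854 to 0.159 for Pcx in fresh cells, within -0.239 to 0.0554 for Idh3g and -0.0361 to 0.0817 for Mdh1 after NKG2D, and within -2.25 to 0.0818 for the wild-type NKG2D response of Idh2. The cause was not tested.

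With the replicate number as a block, 73 of 75 member values kept direction and call. The calls of Suclg1 in the wild-type priming response (adjusted p = 0.0671) and of Idh3a in the contrast of NKG2D with fresh (adjusted p = 0.0633) were lost. The genotype counts of all genes were 11, 2074 and 2435. Of the 616 member values recomputed under other settings 546 kept direction and call, as did 474 of 546 with 1 library left out. Over all genes, the 10 genotype calls in fresh cells became 137 with DESeq2, 1900 with limma voom, 564 without a filter, 780 with the fresh libraries alone and 5 to 12 with 1 library left out. The 2307 in primed cells became 4214 with limma voom and 1128 with their own libraries (1357 to 2589), and the 2708 after NKG2D became 6256 with limma voom (1643 to 3051). The NKG2D responses, 2954 and 5248, became 5295 with limma voom in wild type and 3450 with their own libraries in knock-out. The 1559 calls of the priming difference became 4157 with limma voom and 972 with the block within genotype, the 528 of the NKG2D difference became 1016 with DESeq2, 2114 with limma voom, 887 without a filter, 203 with their own libraries and 250 with the block within genotype, and the 2411 of the contrast of NKG2D with fresh became 5691 with limma voom. Pcx could not be tested in fresh cells with their libraries alone, and its depth there, 1 to 7 reads a library, limits its values.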
